A study of Mus musculus with 2 samples.

Results

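Keratins are the intermediate filament proteins of epithelial cells, and they were described here gene by gene in single cells of mouse dorsal skin. Every gene whose symbol is Krt followed directly by a digit was taken, without the keratin-associated Krtap genes, which gave 53 of the 33904 genes in the expression matrices. The mice were 7-week-old C57BL/6J females whose backs were depilated with Nair cream 24 hours before the first of 10 daily topical applications. The control mice (Ctrl) received ethanol, and the mice of the atopic dermatitis model (AD) received 4.5 nmol of MC903 (calcipotriol, a vitamin D analogue) in the same way, and dorsal skin was taken on day 10. Depilation was thus shared by both groups. Each group was 1 10x Genomics 3′ library, and the number of mice behind a library was not stated, so no difference between Ctrl and AD had a replicate check and no test was possible. Values are unique molecular identifiers (UMIs, counted transcript molecules) added up across a class of cells and expressed per 1000000 UMIs of that class (CPM). Brackets give exact 95% intervals (Poisson for CPM, Clopper-Pearson for shares of cells) that cover counting error only, not the differences between mice.

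Keratin filaments are obligate heteropolymers of a type I (acidic) and a type II (basic) keratin, so the genes are used in pairs that mark a layer or a differentiation state. Basal keratinocytes (KCs) of the epidermis make Krt5 with Krt14, and KCs that leave the basal layer switch to Krt1 with Krt10. Krt6a, Krt6b, Krt16 and Krt17 are present in hair follicles and are known as stress keratins of the epidermis because wounds and inflammation induce them there, while the companion layer (Krt75), the inner root sheath and the hair shaft have keratins of their own.

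In the GRCm38 annotation, 26 of the type I members lay between 99279959 and 100269871 of chromosome 11, and Krt222 lay apart from them on the same chromosome. The 25 type II members lay between 101347444 and 102004482 of chromosome 15, beside Krt18, the type I gene outside the type I cluster (102028180 to 102032027). By role, 3 members were basal, 5 suprabasal (Krt1, Krt2, Krt10, Krt77, Krt78), 4 stress, 1 companion layer, 1 upper follicle and sebaceous duct (Krt79), 7 inner sheath, 16 hair and 6 simple epithelial keratins, with 10 others. UMIs were found for 51 members. Krt33b and Krt40 had 0 UMIs in both libraries, 14 members had 1 to 10 UMIs in both libraries together, and 37 had more.

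The inner sheath keratins are shown first by sequence, because they had the largest log2 ratio between the libraries of the keratin groups and because 7 of 7 had a promoter entry in the RefSeq table (GRCm38.p6). Each line gives the 50 bases before and 10 bases from the annotated start, read 5′ to 3′ on the gene's own strand, and capitals mark the letters TATAAA (the TATA box core) where they begin 40 to 19 bases before the start.
Krt25, chr11:99322942-99323001, minus strand: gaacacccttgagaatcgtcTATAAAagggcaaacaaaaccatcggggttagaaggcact
Krt26, chr11:99337956-99338015, minus strand: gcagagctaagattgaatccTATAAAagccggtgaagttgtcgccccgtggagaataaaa
Krt27, chr11:99351109-99351168, minus strand: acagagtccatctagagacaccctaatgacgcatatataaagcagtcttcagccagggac
Krt28, chr11:99374894-99374953, minus strand: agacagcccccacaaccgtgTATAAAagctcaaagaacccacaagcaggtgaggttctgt
Krt71, chr15:101743088-101743147, minus strand: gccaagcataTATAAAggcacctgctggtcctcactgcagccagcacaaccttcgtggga
Krt72, chr15:101786511-101786570, minus strand: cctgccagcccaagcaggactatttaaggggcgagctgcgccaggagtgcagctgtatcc
Krt73, chr15:101802351-101802410, minus strand: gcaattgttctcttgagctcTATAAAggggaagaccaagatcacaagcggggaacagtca
Krt25, Krt26, Krt28, Krt71 and Krt73 carried TATAAA in that interval, which made 5 of 7, and Krt27 and Krt72 held these letters elsewhere within 300 bases (250 before and 50 after the start), on one strand or the other. Over all keratins with an entry, 13 of 36 (36.1%) carried TATAAA in the interval, against 661 of 32851 promoters in the table (2.01%). On either strand of the whole 300-base window the counts were 19 of 36 (52.8%) and 4473 of 32851 (13.6%). Krt10, the suprabasal type I keratin, carried the motif and Krt5, the basal type II keratin, did not carry these letters there. By role, 1 of 4 suprabasal and 0 of 2 basal keratins with an entry carried it. The Krt14 window, counted among the 36, lay inside the gene as annotated and not at its annotated start.
Krt10, chr11:99389355-99389414, minus strand: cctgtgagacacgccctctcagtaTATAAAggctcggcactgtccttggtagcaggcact
Krt5, chr15:101712896-101712955, minus strand: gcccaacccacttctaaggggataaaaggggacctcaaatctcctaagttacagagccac
The AP-1 letters TGANTCA were found in 1 of 36 keratin windows (2.78%, Krt13) and in 7.81% of all promoters, and the DR3 motif of the vitamin D receptor in 0 of 36 and in 0.0396%, on either strand. A match is a string of letters and not a measured binding site. Promoter entries for Krt6a, Krt6b, Krt16, Krt17, Krt1, Krt15 and Krt35 were not analysed here.

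After removal of barcodes with fewer than 200 or more than 6000 genes or over 10% mitochondrial UMIs, 11399 of 12598 Ctrl barcodes and 8179 of 8778 AD barcodes were kept, with 125184653 and 76106062 UMIs before that filter and median depths of 7813 and 6330 UMIs per kept cell. The libraries shared 35 barcodes. Keratins took 0.623% of all UMIs of kept Ctrl cells and 0.0843% of those of AD cells. A cell was called keratin-rich when Krt5 and Krt14 together, or Krt1 and Krt10 together, reached 0.5% of its UMIs, or when it held any UMI of an inner sheath keratin. This admitted 1750 Ctrl cells (15.4%) and 138 AD cells (1.69%), which held 84.6% and 62.8% of each library's keratin UMIs. Before the barcode filter the same rule admitted 2016 Ctrl and 213 AD barcodes, so the filter removed a larger share of them in AD. The difference in cell number cannot be told apart from a difference in what the tissue digestion released, since each group was a single library.

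The label was checked with a panel of 12 epithelial genes that holds no keratin (among them Perp, Dsp, Trp63 and Cdh1), and 86.5% of the keratin-rich Ctrl cells and 94.2% of the AD cells passed it. The panel alone chose 2253 Ctrl and 390 AD cells, here called panel-chosen epithelial cells, and these held 97.4% and 94.4% of the keratin UMIs. Among the keratin-rich cells, 18.5% in Ctrl and 3.62% in AD also passed a marker panel of another cell type. The classes inside the keratin-rich cells were ranges of keratin content rather than cell types. They were 10 sheath-rich cells (inner sheath keratins at least 0.5% of UMIs, all in Ctrl), 391 and 3 suprabasal-rich cells (Krt1 with Krt10), 366 and 115 basal-rich cells (Krt5 with Krt14), and 983 and 20 cells that entered only by a trace of inner sheath UMIs. In Ctrl the cells that entered only by a trace had a median keratin share of 0.134% of UMIs. Of them, 77.2% passed the epithelial panel and 26.2% a panel of another cell type. The median keratin-rich Ctrl cell held 0.371%, less than panel-chosen cells (0.663%) and epithelial cells left outside the class (0.623%). In Ctrl the name keratin-rich thus states the rule and not a high keratin share. In AD the order was the reverse. Cells close to the limit were common. In Ctrl, 401 cells lay between 0.25% and 0.5%, and 272 of the 757 cells at or above 0.5% lay under 1%, while in AD these were 161 cells and 101 of 118.

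**Figure D1:**
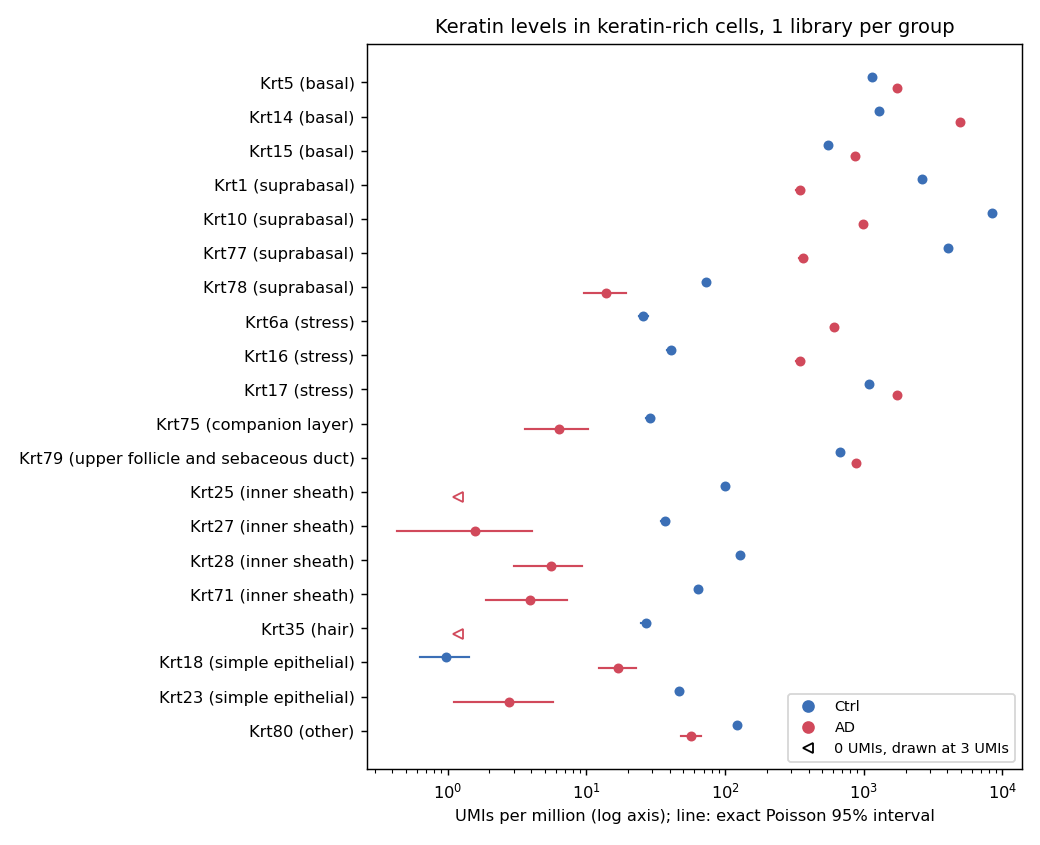
Level of each named keratin in keratin-rich cells (CPM on a log axis) in the Ctrl and AD libraries, 1 point per library with its exact 95% Poisson interval and open triangles for 0 UMIs, drawn at 3 UMIs. Krt6a (25.8 and 606 CPM) and Krt16 (40.5 and 347) lay higher in AD, and Krt1, Krt10, Krt77 and the inner sheath keratins lay lower.

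To see which keratins differed between ethanol-treated and MC903-treated skin, CPM was compared over the keratin-rich cells. Of 15 keratins with at least 50 CPM in either library, Krt6a, Krt14 and Krt16 were at least 2-fold higher in AD (3, against 5.92% of all 3786 genes compared in the same way) and Krt1, Krt10, Krt25, Krt28, Krt71, Krt77, Krt78 and Krt80 were at least 2-fold lower (8, against 10.6%). The median log2 ratio of AD over Ctrl was -1.10 for the 15 keratins and -0.16 for all genes. Krt5, Krt14, Krt1, Krt10 and the inner sheath keratins chose these cells, so their levels there describe the cells admitted.

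The basal keratins took more of the UMIs of AD keratin-rich cells. Together Krt5, Krt14 and Krt15 made up 2986 CPM [2965, 3006] of Ctrl cells and 7540 CPM [7433, 7648] of AD cells, a log2 ratio of 1.34 [1.31, 1.36]. Krt14, the type I basal keratin, was 1289 CPM in Ctrl and 4950 CPM in AD (log2 ratio 1.94). Krt5, its type II partner, was 1148 and 1727 CPM (0.59). Krt15, a type I keratin of basal cells and of the follicle bulge, was 549 and 863 CPM (0.65). The gap was thus wider for Krt14 than for its partner, and the UMI ratio of Krt14 to Krt5 was 1.12 [1.11, 1.14] in Ctrl and 2.87 [2.77, 2.97] in AD. The directions of Krt5 and Krt15 depended on the cells, with log2 ratios of -0.05 and -0.28 when cells admitted only by a trace of inner sheath UMIs or as sheath-rich were left out.

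The suprabasal keratins went the other way, with 15225 and 1723 CPM in Ctrl and AD (log2 ratio -3.14 [-3.19, -3.10]). Krt10 was 8464 and 996 CPM, Krt1, its type II partner, 2637 and 350 CPM, Krt77, a type II keratin also known as Krt1b, 4051 and 362 CPM, and Krt78 72.6 and 13.9 CPM. A single AD cell held most of what was left. It carried 866 of the 883 Krt1 UMIs, 2191 of 2514 for Krt10, 897 of 915 for Krt77 and 35 of 35 for Krt78. Krt80, a type II keratin of differentiating epithelia, was 122 and 57.0 CPM (-1.10). Krt2, the keratin of the uppermost layers in tail and ear skin, had 26 UMIs in Ctrl and 3 in AD.

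Among the stress keratins, Krt6a (ENSMUSG00000058354, type II, chr15:101689910-101694307) was 25.8 CPM [23.9, 27.8] in Ctrl and 606 CPM [576, 637] in AD, a log2 ratio of 4.55. Krt16 (ENSMUSG00000053797, chr11:100246091-100248902), a type I partner of Krt6a, was 40.5 CPM [38.1, 42.9] and 347 CPM [325, 371], a log2 ratio of 3.10. Krt17 (ENSMUSG00000035557, chr11:100256217-100261029), which follicle cells carry in healthy skin, was 1087 and 1735 CPM (0.67). Krt6b stood apart from its neighbour Krt6a, since its 93 Ctrl UMIs came from 3 cells, 58 of them from a single cell, and AD had none, which made it at least 2.91-fold lower. Krt17 changed direction with the choice of cells, being 1586 CPM in Ctrl and 1187 CPM in AD (-0.42) over panel-chosen epithelial cells, where Krt6a (24.6 and 350 CPM, 3.83) and Krt16 (32.8 and 175 CPM, 2.42) kept theirs. Over those cells, Krt6a, Krt14 and Krt16 were the 3 of 15 keratins at least 2-fold higher in AD (against 6.61% of all genes), and Krt1, Krt10, Krt23, Krt25, Krt28, Krt77, Krt78 and Krt80 were the 8 at least 2-fold lower (against 9.88%).

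The inner sheath keratins were low or at 0 in AD. Of the inner sheath members, Krt25 had 2674 UMIs (99.4 CPM) in Ctrl and 0 in AD, at least 83.7-fold lower, and Krt73 had 198 UMIs (7.36 CPM) and 0, at least 6.20-fold lower. Krt28 was 129 CPM in Ctrl and 5.54 CPM in AD, Krt71 64.3 and 3.96 CPM, and Krt27 37.1 and 1.58 CPM, while Krt26 and Krt72 had at most 6 UMIs in a library. The 29 inner sheath UMIs left in AD were spread over 27 cells with no more than 2 in any cell, whereas 1 Ctrl cell held 495. In the 10 sheath-rich Ctrl cells, Krt71 stood at 7500 CPM and Krt25 at 5178 CPM. The type II Krt71 and the type I Krt25 were found in 100% of these cells. Inner sheath keratins chose the sheath-rich cells, so these levels and shares describe the cells admitted.

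Krt75, the companion layer keratin, was 28.8 CPM in Ctrl and 6.34 CPM in AD (log2 ratio -2.18 [-3.00, -1.47]), with 13 of its 16 AD UMIs in 1 cell. Krt35, a hair shaft keratin of the matrix and cortex, had 725 UMIs (27.0 CPM) in Ctrl and 0 in AD, at least 22.7-fold lower. Krt32, a hair cuticle keratin, was 2.27 and 2.38 CPM. The other 14 hair keratins had at most 41 UMIs each in the keratin-rich cells of either library. Over panel-chosen cells, which no inner sheath keratin had helped to choose, Krt25 was 74.9 CPM in Ctrl and 0 in AD (at least 145-fold lower), Krt28 96.6 and 1.90, Krt71 48.0 and 1.55, Krt75 32.3 and 2.93, and Krt35 25.4 and 0 (at least 49.0-fold lower).

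Krt79, a type II keratin of the upper follicle and sebaceous duct, was 677 CPM in Ctrl and 873 CPM in AD (0.37) in keratin-rich cells but 1115 and 567 CPM (-0.98) over panel-chosen cells. Its AD value leaned on few cells, with 841 of 2204 UMIs in 1 cell. The simple epithelial keratins, which pair in single-layered epithelia, did not move together. Krt18 was 0.967 CPM in Ctrl and 17.0 CPM in AD (log2 ratio 4.14 [3.40, 4.90]), while Krt8, the type II keratin it pairs with, was 1.23 and 2.38 CPM (0.95 [-0.59, 2.23]). Krt23 was 46.7 and 2.77 CPM (-4.08). Krt7 had 57 UMIs in Ctrl and 0 in AD, Krt19 36 and 0, and Krt20 12 and 0.

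The 366 Ctrl and 115 AD basal-rich cells allowed a comparison within 1 range of keratin content. Their median depths were 10137.5 and 16895 UMIs, and 98.1% and 96.5% of them passed the epithelial panel. Of 11 keratins with at least 50 CPM, Krt6a, Krt16 and Krt79 were at least 2-fold higher in AD (3, against 4.50% of all genes) and Krt1, Krt5, Krt10, Krt15, Krt77 and Krt80 at least 2-fold lower (6, against 8.89%). Krt5 and Krt14 chose these cells, so their levels in them are a description, and most lay within 2 times the limit (225 of 366 in Ctrl, 100 of 115 in AD). Krt5 and Krt15 were not among the lower keratins of panel-chosen cells. After thinning, the share of Ctrl basal-rich cells with Krt10 lay near that of fibroblasts, as given below. The fibroblast panel took 1623 CPM of these cells in Ctrl and 50.1 CPM in AD, and its part in the keratin levels was not tested.

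The levels of the basal pair differed with how the cells were chosen. In basal-rich cells Krt14 was 6050 CPM [5977, 6124] in Ctrl and 5554 CPM [5454, 5656] in AD, a log2 ratio of -0.12. Krt5 was 4848 CPM [4782, 4914] and 1940 CPM [1881, 2000], a log2 ratio of -1.32. Over panel-chosen cells, which neither gene had chosen, Krt5 was 1144 CPM [1133, 1155] in Ctrl and 1216 CPM [1188, 1245] in AD (0.09), and Krt14 was 1342 CPM [1330, 1354] and 3330 CPM [3283, 3377] (1.31). The lower Krt5 of AD was thus not found there, whereas a higher ratio of Krt14 to Krt5 was found in both. The UMI ratio was 1.25 in Ctrl and 2.86 in AD, and 1.17 and 2.74 over panel-chosen cells. Cell by cell, the median share of UMIs was 0.421% in Ctrl and 0.177% in AD for Krt5, and 0.438% and 0.472% for Krt14, over basal-rich cells. Over panel-chosen cells the medians were 0.0493% and 0.0836% for Krt5, and 0.0392% and 0.235% for Krt14, so the direction of Krt5 was the reverse. Krt15 in basal-rich cells was 2596 and 883 CPM (-1.56), and its median cell held 0.169% in Ctrl and 0.00497% in AD. It too went the other way over panel-chosen cells, where it was 654 and 796 CPM (0.28) with medians of 0.00574% and 0.0112%. Among AD basal-rich cells the 12 richest in Krt15 held 73.7% of its UMIs, against 38.2% for the 37 richest of 366 Ctrl cells.

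**Figure D2:**
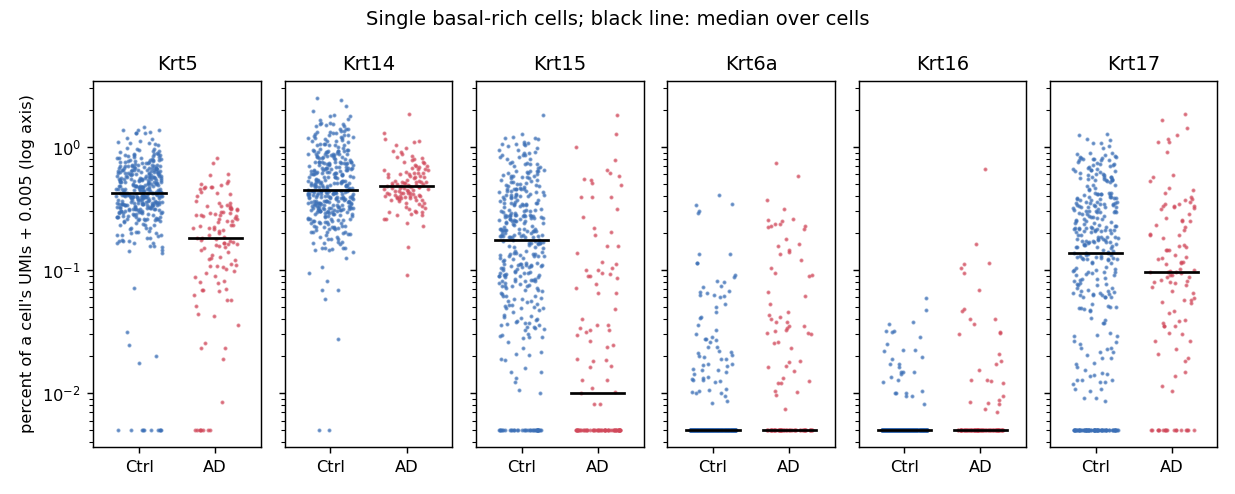
Share of each basal-rich cell's UMIs (percent, with 0.005 added, log axis) taken by Krt5, Krt14, Krt15, Krt6a, Krt16 and Krt17, 1 point per cell and a line at the median, for 366 Ctrl and 115 AD cells. Krt5 and Krt14 chose the cells shown, and the Krt5 medians of 0.421% in Ctrl and 0.177% in AD have the reverse order in panel-chosen cells (0.0493% and 0.0836%). For Krt6a and Krt16 the median was 0 in both with a tail of high cells in AD.

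Of the stress keratins, Krt6a was 102 CPM [92.7, 112] in Ctrl basal-rich cells and 572 CPM [540, 605] in AD (log2 ratio 2.49). Krt16 was 14.4 CPM [11.1, 18.5] and 257 CPM [236, 280] (4.15). Single cells weighed on both AD values, since 1 cell held 327 of the 1199 Krt6a UMIs and 1 cell 298 of the 539 Krt16 UMIs. Krt17 was 2163 and 1934 CPM (-0.16). Because Krt17 outweighed the others in UMIs, the 4 stress keratins summed to 2280 CPM in Ctrl and 2763 CPM in AD (0.28), while Krt6a and Krt16 alone summed to 116 and 829 CPM (2.83). Krt6a was found in 19.1% [15.2, 23.5] of Ctrl and 49.6% [40.1, 59.0] of AD basal-rich cells, and in 6.44% and 18.9% after each cell was thinned to 1000 UMIs (9 shallower cells left out per library). Krt16 was found in 8.47% and 26.1% of cells. After thinning it was found in 1.68% [0.619, 3.62] of Ctrl cells (6 of 357) and 6.60% [2.70, 13.1] of AD cells (7 of 106), with overlapping intervals. In fibroblasts, which should lack Krt6a, it was found in 0.348% of Ctrl and 1.56% of AD cells (medians of 8714 and 6988 UMIs).

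A UMI of any stress keratin was found in 84.4% [80.3, 88.0] of Ctrl and 90.4% [83.5, 95.1] of AD basal-rich cells. After thinning the shares were 63.6% [58.4, 68.6] and 65.1% [55.2, 74.1], so that no difference was detectable at that depth. Krt6a and Krt16 were uneven among AD cells, in that the 12 richest of 115 held 86.2% of the Krt6a UMIs and 93.9% of the Krt16 UMIs. Cells with at least 3 UMIs of Krt6a and Krt16 together numbered 43 in Ctrl (11.7%) and 42 in AD (36.5%). In AD these 42 cells had 2958 CPM of Krt17 against 1109 in the other 73, 1254 CPM of Krt15 against 585, and 2291 CPM of Cst6, a cysteine protease inhibitor of the upper follicle and differentiating KCs, against 534. In Ctrl the same split gave 36.2 CPM of Cst6 in the 43 cells and 836 in the other 323. The median depth was 22957.5 UMIs in the 42 AD cells and 14103 in the other 73, and the part of depth was not tested. A single AD basal-rich cell held 1705 of the 3609 UMIs of an upper follicle marker panel that includes Cst6. Its part in the Cst6 values was not tested.

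Krt18 had 1 UMI in Ctrl basal-rich cells and 38 in AD (0.233 and 18.1 CPM, log2 ratio 6.28 [3.72, 11.62]). It was found in 19.1% [12.4, 27.5] of the AD cells and in 0.0868% of AD fibroblasts. After thinning it was found in 2.83% [0.587, 8.05] of AD basal-rich cells (3 of 106) and in 0 of 357 Ctrl cells [0, 1.03]. These intervals overlapped. Over panel-chosen cells the UMI ratio of Krt18 to Krt8 was 0.486 [0.315, 0.738] in Ctrl and 3.91 [2.45, 6.48] in AD. Merkel cells, the touch receptors that carry Krt8, Krt18 and Krt20, were sought by at least 2 of Atoh1, Sox2, Isl1 and Piezo2. Of 62 such Ctrl cells 3 held a UMI of those keratins, and of 21 such AD cells 0 did. Krt8 and Krt18 were found together in 3 Ctrl cells and 1 AD cell. Krt77 was 174 CPM in Ctrl and 1.91 CPM in AD basal-rich cells (-6.51), Krt10 201 and 30.0 CPM, and Krt1 105 and 8.10 CPM. After thinning, a Krt10 UMI was found in 11.2% [8.13, 14.9] of Ctrl basal-rich cells and 8.68% [7.94, 9.47] of Ctrl fibroblasts. In AD these shares were 0 of 106 cells and 1.15%. The Ctrl share of Krt10 thus lay near that of fibroblasts, and the part of background in its lower AD level was not tested. Krt79 was 494 and 1008 CPM (1.03), with 88.0% of the AD UMIs in the 12 richest cells.

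MC903 acts on the vitamin D receptor, and Cyp24a1, the enzyme that degrades active vitamin D and a direct target of the receptor, checked the labels. It had 0 UMIs in Ctrl basal-rich cells and 4185 in AD (1995 CPM), with the receptor gene Vdr at 181 and 140 CPM. Among the fixed list of keratin regulators, 0 of 7 were 2-fold higher (against 4.50% of all genes) and 0 of 7 were 2-fold lower (against 8.89%) in basal-rich cells. Of 13 genes on a list of filament linkers and partners that also held the proliferation marker Mki67, 0 were higher and 4 were lower, read against the same shares. These were Col17a1, the hemidesmosome collagen (992 and 471 CPM), Dst, which ties keratins to hemidesmosomes (1029 and 486), Evpl, a cornified envelope linker (log2 ratio -1.57), and Mki67 itself (474 and 84.9). The hemidesmosome genes went the other way over panel-chosen cells, with Col17a1 at 235 and 550 CPM (1.23), Dst at 410 and 534 CPM (0.38), and the integrins Itga6 and Itgb4 at log2 ratios of 1.05 and 1.25. Evpl (-1.91) and Mki67 (-3.06) were lower there as well.

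The suprabasal-rich cells numbered 391 in Ctrl and 3 in AD, and the 3 cells differed among themselves. The first (51903 UMIs) held 866 UMIs of Krt1, 2191 of Krt10, 897 of Krt77 and 229 of Krt16, with 0 of Krt6a. The second (16886 UMIs) held 132 UMIs of Krt10, 245 of Krt6a, 98 of Krt16 and 222 of Krt14. The third (14003 UMIs) held 119 UMIs of Krt10, 81 of Krt6a and 2 of Krt16. Krt6a was therefore seen beside Krt10 in the latter cells and not in the first. Krt5 had 0 UMIs in each of them.

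Summed, Krt6a was 24.1 CPM in Ctrl and 3938 CPM in AD suprabasal-rich cells, Krt16 116 and 3974 CPM, and Krt17 1775 and 1703 CPM. With 3 cells these values describe those cells. Of 13 keratins with at least 50 CPM there, 3 were at least 2-fold higher (Krt6a, Krt14, Krt16, against 15.6% of all genes) and 4 lower (Krt5, Krt15, Krt23, Krt79, against 7.87%). Of 9 regulators, Sox9 was higher and Gata3, Klf5 and Trp63 were lower, and of 12 genes on the linker list Eppk1 was higher and Col17a1, Dst and Flg were lower. Flg, the filaggrin precursor that bundles keratins in the cornified layer, was 2381 CPM in Ctrl and 193 CPM in AD.

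To place the keratins within epidermis and follicle, the epithelial cells without another type's panel (2004 in Ctrl and 370 in AD) were divided by whichever marker panel without keratins took the largest scaled share of their UMIs. The interfollicular basal panel (among them Col17a1, Itga6 and Itgb4) led in 328 Ctrl and 165 AD cells, the outer sheath and bulge panel (among them Sox9, Cd34 and Lgr5) in 302 and 74, the upper follicle panel (Lrig1, Cst6, Defb6, Klk10) in 203 and 27, and the sebaceous gland panel (Scd1, Mgst1, Elovl6, Awat2) in 249 and 56. The matrix panel led in 332 and 8 cells, the inner sheath panel in 254 and 17, and the suprabasal panel in 212 and 0. No panel led in 124 and 23. A leading panel is not a cell type. The cells led by the inner sheath panel, for instance, held 7839 CPM of Krt10 in Ctrl, and the 27 AD cells led by the upper follicle panel had a median of 2497 UMIs against 13523 in Ctrl.

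**Figure D3:**
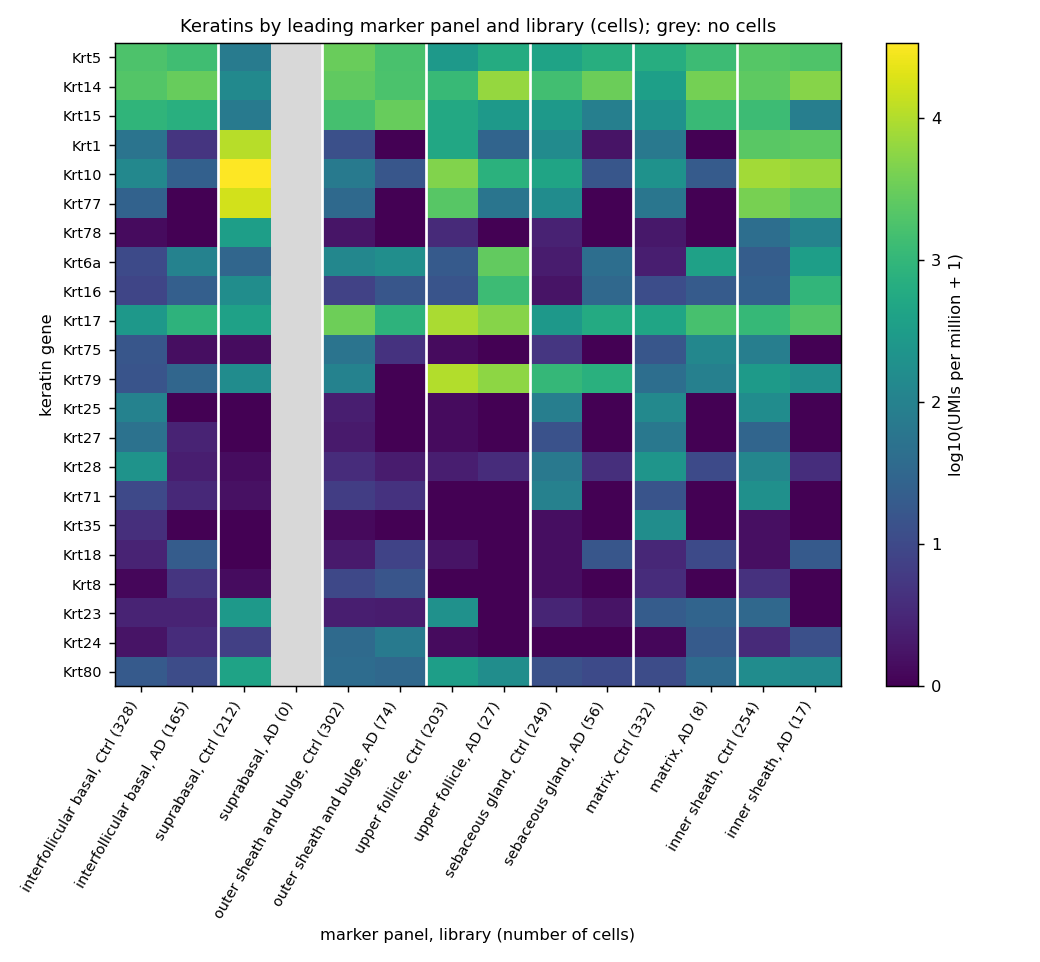
Heat map of log10(CPM + 1) of the named keratins (rows) in epithelial cells divided by their leading keratin-free marker panel, Ctrl and AD columns side by side for each panel. Brighter colours are higher levels and grey marks a panel with no cells. Krt6a and Krt16 in AD were brightest in the 27 cells led by the upper follicle panel (2728 and 1258 CPM), and their spread over those cells is not given here. Krt35 in Ctrl was found mainly in cells led by the matrix panel (168 CPM).

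Krt6a and Krt16 were higher in AD under each of the interfollicular basal, outer sheath and bulge, upper follicle and sebaceous gland panels, by unequal amounts. Krt6a was 9.46 CPM in Ctrl and 100 CPM in AD in cells led by the interfollicular basal panel (log2 ratio 3.41). In cells led by the upper follicle panel it was 17.8 and 2728 CPM (7.26). It was 1.23 and 42.9 CPM under the sebaceous gland panel (5.12). Krt6a is part of the normal structure of the outer sheath. Cells led by the outer sheath and bulge panel already held 123 CPM in Ctrl and reached 174 CPM in AD (0.50 [0.22, 0.77]). Krt16 was 7.97 and 22.2 CPM under the interfollicular basal panel, 14.2 and 1258 under the upper follicle panel, 0.739 and 33.0 under the sebaceous gland panel, and 6.95 and 15.6 under the outer sheath panel. The upper follicle values of AD rest on 27 cells with 357052 UMIs in all and a median of 2497. How the Krt6a and Krt16 UMIs were spread over them is not given here. The 3 AD suprabasal-rich cells held 326 UMIs of Krt6a and 329 of Krt16. They fell under other panels, since the suprabasal panel led in 0 AD cells. The upper follicle panel took 13262 CPM of the UMIs of these 3 cells, and their part in the Krt6a and Krt16 values was not tested.

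Krt17 took opposite directions under these panels. In cells led by the interfollicular basal panel it was 263 CPM [250, 277] in Ctrl and 840 CPM [803, 880] in AD. In cells led by the outer sheath and bulge panel, where it is a structural follicle keratin, it was 3383 CPM [3323, 3443] and 834 CPM [773, 898]. It was 9084 and 5064 CPM in cells led by the upper follicle panel and 256 and 587 CPM in those led by the sebaceous gland panel. Krt79 stayed with the upper follicle panel (10241 and 5767 CPM) and was 99.6 CPM and 0 (at least 27.7-fold lower) under the outer sheath panel.

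Krt14 was 2065 and 2974 CPM under the interfollicular basal panel, 1144 and 6366 under the upper follicle panel, 1431 and 3273 under the sebaceous gland panel, and lower in AD, at 2688 and 1753, under the outer sheath panel. Krt15 was higher in AD under the outer sheath and bulge panel (1569 and 2945 CPM, 0.91) and lower under the interfollicular basal panel (921 and 704 CPM). Krt35 was 168 CPM in the 332 Ctrl cells led by the matrix panel, from 844 UMIs, and 0 in the 8 AD cells. Krt28 was 233 CPM in the same Ctrl cells and 208 CPM in Ctrl cells led by the interfollicular basal panel, where AD had 1.36 CPM. Krt18 was higher in AD under the interfollicular basal panel (log2 ratio 3.43 [2.42, 4.58]) and the sebaceous gland panel (4.96 [2.92, 8.10]). Cyp24a1 was 742 CPM in AD cells led by the interfollicular basal panel, 2070 under the upper follicle panel, 1096 under the sebaceous gland panel and 132 under the outer sheath panel, with at most 3.20 CPM in Ctrl.

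Outside the epithelium, low levels of the abundant epithelial keratins were found in every cell type of Ctrl. Fibroblasts (5457 in Ctrl, 4609 in AD) held 88.0 CPM of Krt10 in Ctrl and 11.1 CPM in AD, and a Krt10 UMI was found in 50.9% and 7.59% of them. Endothelial cells held 57.2 and 2.33 CPM and leukocytes 74.5 and 2.95 CPM. Krt77 was 24.6 CPM in Ctrl fibroblasts and 0 in AD (at least 295-fold lower), and Krt17 was 14.1 and 6.17 CPM. Krt6a went the opposite way, at 0.372 and 2.06 CPM in fibroblasts and 0.583 and 2.43 CPM in leukocytes. These low levels in cell types that should lack the genes were read as background, with the following limit for Krt10. In Ctrl the ratio of Krt10 to Krt1 was 3.23 [3.20, 3.26] in panel-chosen epithelium and 6.72 [6.19, 7.30] in fibroblasts. It was also higher in leukocytes (4.52 [3.68, 5.59]), endothelial cells (5.65 [3.71, 8.94]) and neural crest cells (6.41 [3.83, 11.4]). It was 3.39 [2.28, 5.17] in mural cells, 3.67 [0.969, 20.5] in mast cells and 3.27 [2.36, 4.59] in T cell marker-positive leukocytes. Krt10 in fibroblasts and several other types was thus not in the proportion to Krt1 that the epithelium as a whole had. The ratio was 11.1 [9.62, 12.8] in the Ctrl epithelial cells left outside the keratin-rich class. In AD the ratio was 2.86 [2.65, 3.09] in panel-chosen epithelium and 15.3 [10.3, 23.8] in fibroblasts, from 399 and 26 UMIs.

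**Figure D4:**
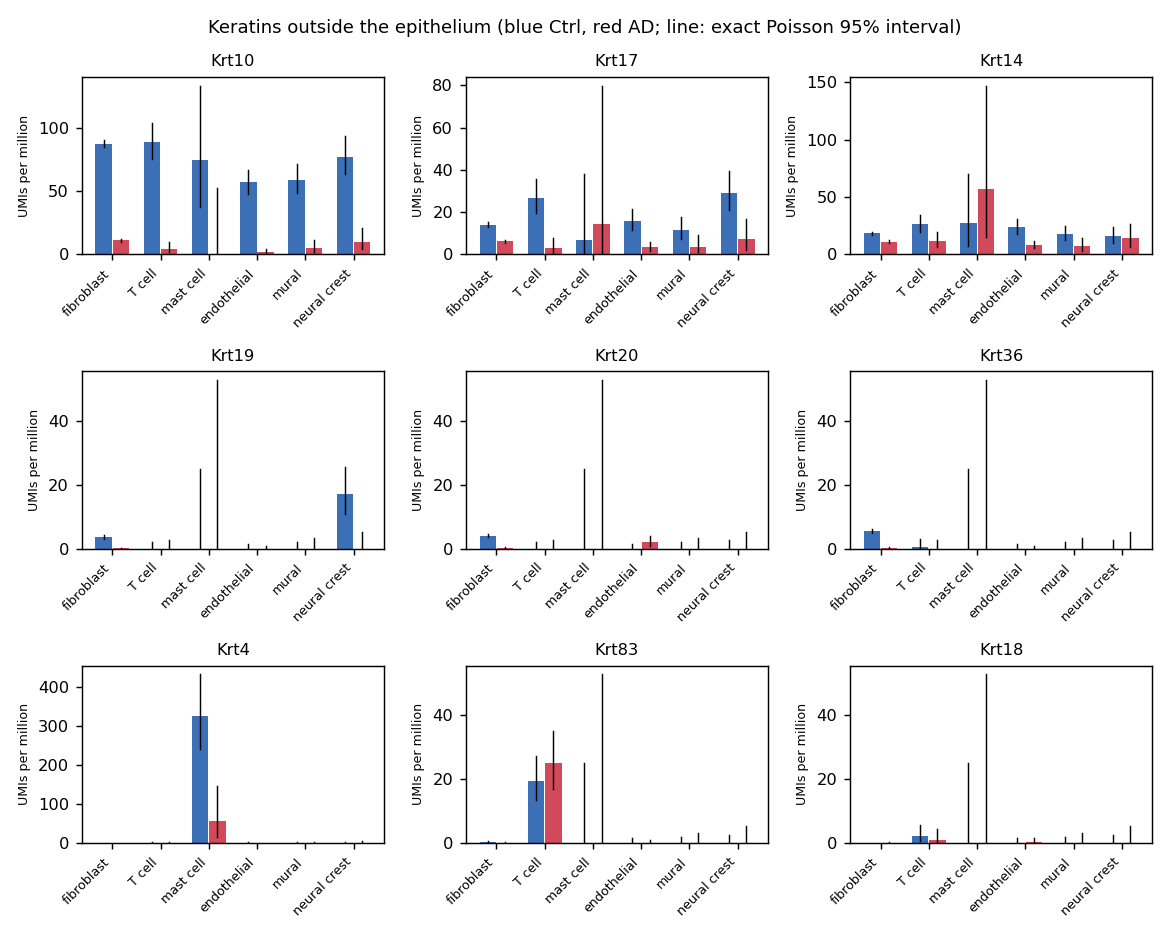
Level (CPM, bars from 0 with exact 95% Poisson lines) of 9 keratins in 6 cell types outside the epithelium, Ctrl (blue) beside AD (red). Krt83 was highest in T cell marker-positive leukocytes and Krt4 in mast cells, whereas Krt10 in Ctrl lay between 57.2 and 89.1 CPM in all 6 types, and lines without a bar are cell types at 0 UMIs.

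A few members were higher outside the epithelium than in it. Krt83, a type II hair keratin, was 19.5 CPM [13.6, 27.1] in 528 Ctrl and 24.9 CPM [17.0, 35.1] in 202 AD leukocytes with T cell markers (Cd3e, Cd3g or Trdc), found in 5.11% and 10.4% of them. In fibroblasts it was found in 0.165% and 0.0651% of cells, and panel-chosen epithelium had 0.144 CPM in Ctrl and 0 in AD. After thinning, 1.35% [0.543, 2.75] of Ctrl and 2.54% [0.829, 5.82] of AD T cell marker-positive cells held it, so a difference between the libraries was not detectable. The genes that most set apart cells with Krt83 were led by Il17a, Vps37b, Emb and Icos in AD, with Trdc among the first 10, and by S100a9, S100a8, Il17a and Il17f in Ctrl, the first pair being neutrophil genes.

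Krt4, a mucosal type II keratin, had 48 UMIs in 71 Ctrl mast cells (327 CPM [241, 434], 36.6% of cells) and 4 in 20 AD mast cells (57.4 CPM [15.6, 147]). No Krt4 UMI was found in T cell marker-positive leukocytes of either library, which allows a share of cells with a Krt4 UMI of up to 0.568% in Ctrl and 1.49% in AD (3 counts of the cells, at median depths of 3106.5 and 5118.5 UMIs) and sets no limit on cells that express it. Krt20, Krt36 and Krt19 were mainly fibroblast transcripts in Ctrl, where fibroblasts held 93.0%, 91.0% and 62.3% of their UMIs. Krt20 was 4.13 CPM in Ctrl and 0.278 CPM in AD fibroblasts, Krt36 5.54 and 0.334, and Krt19 3.66 and 0.167. Cells with Krt20 in Ctrl were led by Lrrc15, Col11a1 and Adamts18, those with Krt36 by Smpd3, Pla1a, Ccl2 and Ptx3, and those with Krt19 by Anxa3, Smpd3 and Ackr3. The matching genes and the markers of T cells and mast cells were chosen after the values were seen.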

How the data were processed

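Skin cells were profiled with the 10x Genomics Chromium 3′ kit, 1 library per group. The deposited matrices hold whole-number UMI counts per gene and barcode, which the authors made with Cell Ranger against mm10. The submitters' processing notes name Cell Ranger 3.1.0 and Seurat 5.0, the matrix header names 5.0.0, and the methods text another version. The labels name collagenase D and dead cell removal, the design text collagenase IV.

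Cells with 200 to 6000 genes and at most 10% of UMIs from 13 mitochondrial genes were kept, as the filter stated by the study. Counts were summed over cells of a class and divided by all UMIs of that class. No normalized or integrated values were used. With 1 library per group no test was run. Log2 ratios have exact conditional binomial intervals, and a sum of 0 was set to a floor of 3 UMIs per library for a bound ("at least"). "Called" means a 2-fold difference among genes of at least 50 CPM in either library. UMIs were counted at 3′ ends, so CPM is not divided by length and levels of different keratins were not ranked. In a check of shared sequence, 90-base windows in the last 500 bases of transcripts were shared with another gene for 2 of 53 members, Krt16 (4.38% of its windows, with Gm11597) and Krt87 (23.4%, with Gm49425).

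Members and lists were chosen with earlier results of these data known. Named with values were members of at least 10 CPM in keratin-rich cells, all stress, companion layer and simple epithelial keratins, and the members highest outside the epithelium relative to it. A cell passed the epithelial panel with at least 4 of 12 genes and 0.1% of UMIs. Thresholds of the panels, the T cell and mast cell markers and the division by leading panel (scaled by the 90th percentile, at least 0.5) were set after seeing the data. Doublets were not called, and barcodes that passed a panel of another cell type were kept and left out as an alternative. Alternatives concerned the barcode filter, keratin share, inner sheath UMIs, panel choice, scaling and cell weighting.

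Python 3.11.15, numpy 2.4.6, pandas 2.3.3, scipy 1.17.1 and matplotlib 3.10.9 were used. Counts were simulated for the basal-rich comparison over 3344 genes, 200 of them changed 4-fold. Of these, 100% of changed and 0% of unchanged genes passed 2-fold, and 95.8% of intervals held the true ratio. The counts were drawn with counting error alone, so the draw itself set this outcome and it checked the code only. The gathering of UMIs in single cells and differences between mice were left out. Promoters came from RefSeq (GRCm38.p6).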

Additional observations from a re-analysis of the deposited data

Results flagged for a closer look

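Krt17 moved in opposite directions in epithelial cells led by different marker panels, under the same contrast of AD over Ctrl. Its log2 ratio was 1.68 in cells led by the interfollicular basal panel and 1.19 in cells led by the sebaceous gland panel, and -2.02 in cells led by the outer sheath and bulge panel. There was 1 library per group, and the difference between these sets of cells was not tested. A leading panel is not a cell type. The interfollicular basal panel took 3275 CPM in Ctrl cells with only a trace of inner sheath UMIs and 2961 CPM in Ctrl basal-rich cells. In cells led by the interfollicular basal panel, the inner sheath keratin Krt28 was far higher in Ctrl than in AD, with the values given above. The cells led by this panel were thus not alike in Krt28 in the 2 libraries. The part of such differences in the Krt17 ratios was not tested.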

How the results depend on the processing

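Log2 ratios of AD over Ctrl kept their sign for the basal, suprabasal, stress, inner sheath and hair groups under every alternative, but 39 of 76 values for these groups, shares and counts moved by more than counting error, and the cause was not tested. With all deposited barcodes the ratios were 1.22 (basal), -4.58 (suprabasal), 1.67 (stress), 0.74 (stress, basal-rich) and 2.53 (stress, suprabasal-rich), and Krt15 turned to -0.40 and Krt17 in basal-rich cells to 0.13. With a keratin share of 2% they were 1.99, -1.52, 1.57, 1.88 and 2.65 in that order, and -3.24 for the inner sheath, with 1 basal-rich and 1 suprabasal-rich AD cell left. With 3 UMIs of inner sheath keratins to admit a cell, basal was 1.30, stress 1.33 and inner sheath -6.70. Without mixed barcodes, basal was 1.22, suprabasal -3.27 and stress 1.11. In panel-chosen cells they were 0.77 (basal), -3.97 (suprabasal), 0.06 (stress), 0.11 (stress, basal-rich), 1.79 (stress, suprabasal-rich) and -5.87 (inner sheath), with Krt17 at -0.42 and Krt79 at -0.98. Less the median of all genes they were 1.49, -2.99, 1.37, 0.44 and 2.17 for the first groups, and Krt17 in basal-rich cells was 0.00. As a mean over cells, basal was 1.09, suprabasal -3.85, stress 0.23 in basal-rich and 2.59 in suprabasal-rich cells. Basal-rich and suprabasal-rich cells alone, an alternative chosen after seeing the data, gave 0.58 (basal), -4.05 (suprabasal), 0.56 (stress), -0.58 (inner sheath) and -1.04 (hair), and turned Krt5 to -0.05, Krt15 to -0.28, Krt27 to 0.05, Krt28 to 0.37, Krt75 to 0.92 and Krt79 to -0.50. Thinning moved the share of basal-rich cells with a stress keratin UMI to 63.6% in Ctrl and 65.1% in AD. The number of keratins past 2-fold was 11 and ranged from 8 (minimum of 100 CPM) to 16 (minimum of 10 CPM). Of 230 values for named keratins under an alternative, 88 stayed the same, 131 moved and 11 changed sign. A bound, given where a library had 0 UMIs, has no interval and was counted as moved whenever it shifted beyond rounding. The 131 are therefore not all moves beyond counting error. No paired analysis was possible because each group was 1 library, and no replicate could be left out. Comparisons in suprabasal-rich cells rest on 3 AD cells.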
